A study of Mus musculus with 8 samples.

Results

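The genes described here are 9 genes whose products process or modify Notch signaling, taken by symbol from the deposited count table of 53697 genes. Among them are the Fringe glycosyltransferases Lfng, Mfng and Rfng, the E3 ligase Mib1, and the adaptors Numb and Numbl. The others are the protease gene Adam10, the gamma-secretase subunit gene Ncstn and the transcription factor gene Rbpj. All 9 passed edgeR's low-count filter, as did 18322 genes in all. They were measured by RNA-seq in lineage-negative mammary tumor cells (negative for CD45, CD31 and TER119) of MMTV-PyMT mice on a C57BL/6 background. In this model the mouse mammary tumor virus promoter drives the polyoma middle T antigen in mammary epithelium, and every group carried that transgene.

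There were 2 reporter lines with 2 mice each, and each of the 4 mice gave 1 Dll1+ and 1 Dll1- library, sorted by reporter fluorescence. PyMT-Dll1GFP mice (GFP mice) carried the GFP-IRES-Cre-ERT2 knock-in of Dll1. PyMT-Dll1mCh mice (mCh mice) carried mCherry on a bacterial artificial chromosome, a large transgene. Allele, line and mouse therefore change together between the lines and cannot be told apart, and the ages of the mice are not given in the sources used here.

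Notch receptors and their ligands, of which Dll1 is one, sit on neighboring cells. Fringe enzymes lengthen O-fucose sugars on the receptor and so change which ligands it answers. In the ligand-bearing cell, Mib1 ubiquitinates the ligand so that its endocytosis pulls on the receptor. In the receiving cell, Adam10 cuts the receptor outside the membrane, gamma-secretase, with nicastrin (Ncstn) as a subunit, cuts it inside, and the freed receptor domain joins Rbpj in the nucleus. Numb and Numbl promote the internalization and loss of the receptor. In the mammary gland the pathway is known for its part in luminal fate and in progenitor cells.

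The libraries held 27301396 to 123907626 counts, so a gene at 3 counts lay at 0.0242 to 0.110 CPM (library-scaled counts, here after TMM normalization). Dll1 itself followed the sort in every mouse. It was at 7.61 and 87.5 CPM in the Dll1- and Dll1+ cells of GFP mouse 1, 13.7 and 138 in GFP mouse 2, 34.7 and 203 in mCh mouse 1, and 50.3 and 250 in mCh mouse 2. Epcam, an epithelial marker, was at 899 to 1240 CPM in all libraries, whereas Ptprc (CD45) was at 2.88 to 12.7 and Pecam1 (CD31) at 13.7 to 98.2 CPM. Markers of other cell types were unequal between the lines, and the Dll1- library of mCh mouse 2 stood apart. Its 6 fibroblast markers summed to 21349 CPM, against 7426 in the Dll1- library of mCh mouse 1 and 984 to 3231 in the other libraries.

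The upstream sequences of 4 members are shown here because Lfng, Rfng and Numb moved in the same direction in every mouse and Adam10 passed the test in GFP mice. Mfng also moved in the same direction in every mouse, but the sequence table has no entry for it. Each is the 250 bases before a RefSeq start in GRCm38.p6, read 5′ to 3′ on the gene's strand. Capitals mark matches, on either strand and including overlaps, to the core letters of an RBPJ site, a GC box and a CCAAT box.
Lfng, chr5:140607091-140607340, + strand: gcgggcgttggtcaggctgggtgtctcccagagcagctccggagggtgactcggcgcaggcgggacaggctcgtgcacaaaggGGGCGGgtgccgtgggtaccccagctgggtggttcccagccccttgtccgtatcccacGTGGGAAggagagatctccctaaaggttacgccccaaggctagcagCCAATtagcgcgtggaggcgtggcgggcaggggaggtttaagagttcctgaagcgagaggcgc
Rfng, chr11:120784205-120784454, - strand: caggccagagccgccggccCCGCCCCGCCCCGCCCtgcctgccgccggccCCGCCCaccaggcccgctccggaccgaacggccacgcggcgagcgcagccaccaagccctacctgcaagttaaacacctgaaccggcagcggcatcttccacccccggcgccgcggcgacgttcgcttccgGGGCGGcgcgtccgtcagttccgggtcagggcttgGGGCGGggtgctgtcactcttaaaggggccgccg
Adam10, chr9:70678732-70678981, + strand: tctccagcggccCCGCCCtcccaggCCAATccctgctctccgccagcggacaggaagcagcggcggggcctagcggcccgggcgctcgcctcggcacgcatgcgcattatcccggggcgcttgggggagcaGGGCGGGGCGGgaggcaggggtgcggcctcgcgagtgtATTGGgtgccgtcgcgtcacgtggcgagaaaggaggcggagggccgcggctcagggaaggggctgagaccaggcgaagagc
Numb, chr12:83921935-83922184, - strand: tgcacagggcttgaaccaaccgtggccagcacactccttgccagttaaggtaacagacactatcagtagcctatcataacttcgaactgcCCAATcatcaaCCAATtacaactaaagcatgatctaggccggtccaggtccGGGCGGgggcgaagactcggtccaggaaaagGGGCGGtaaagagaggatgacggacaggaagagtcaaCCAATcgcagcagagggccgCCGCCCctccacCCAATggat
The window of Lfng was the only one of these 4 with the RBPJ letters GTGGGAA, starting at -109 from the RefSeq start. Those letters occurred in 5.42% of 32851 upstream windows of the same length. Lfng also held 1 GC box and 1 CCAAT box. Rfng held 6 GC boxes (GGGCGG) and no CCAAT box at a GC content of 75.6%, against a median of 52.4% over all windows. Adam10 held 3 GC boxes and 2 CCAAT boxes at 74.0% GC, and Numb 3 GC boxes and 4 CCAAT boxes. RefSeq gives 2 further Numb starts, whose windows, at 41.6% and 45.6% GC, held no match in the first case and 1 GC box and 1 CCAAT box in the other. GC boxes and CCAAT boxes were common, in 32.7% and 33.8% of all windows. The letters describe the windows alone and say nothing of factor binding in these cells.

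Levels of different genes were compared as CPM per kilobase of exon, averaged over the 8 libraries. Ncstn and Adam10 stood highest, with Ncstn at 40.6 ± 5.75 (SD, n = 8 libraries from 4 mice) and Adam10 at 27.1 ± 4.91 CPM per kilobase. Their ranges over libraries overlapped. Rfng followed at 18.6 ± 2.39, below every Adam10 value, and then Numb at 10.7 ± 2.53 and Mib1 at 8.28 ± 2.30 CPM per kilobase, whose ranges overlapped. Rbpj was at 4.69 ± 0.798 CPM per kilobase, and all of its values lay below those of Mib1. Lfng at 2.00 ± 0.771, Numbl at 1.49 ± 0.904 and Mfng at 0.836 ± 0.830 CPM per kilobase were lowest and overlapped each other. With the longest protein-coding transcript as length, Rbpj was at 10.9 and Numbl at 4.69 CPM per kilobase, which put Rbpj above Mib1 and Numbl above Lfng. In CPM, Mfng rested on the fewest estimated counts, 21 to 38 in each GFP library and 105 to 502 in each mCh library.

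**Figure D1:**
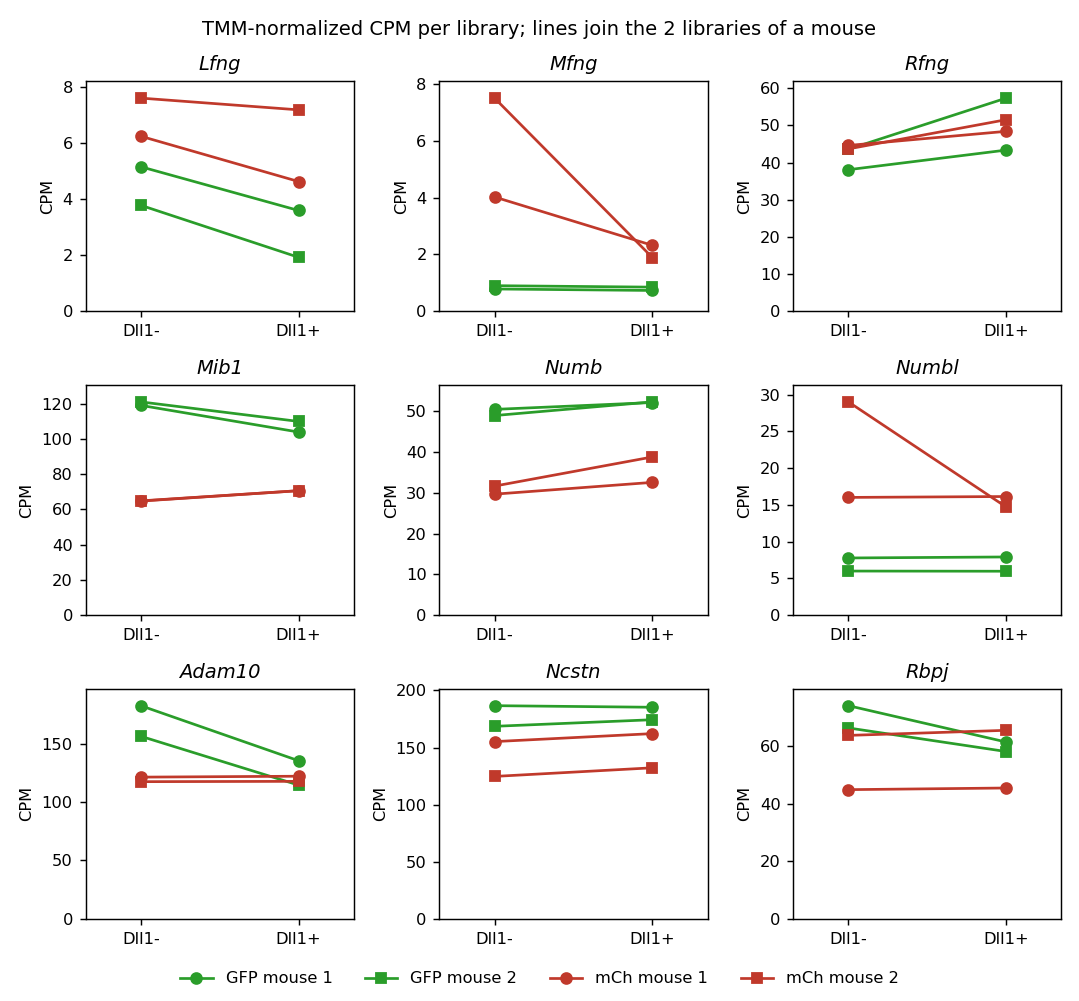
TMM-normalized CPM (y axis, from 0) of the 9 genes in Dll1- and Dll1+ cells (x axis), with GFP mice in green, mCh mice in red, and lines joining the libraries of a mouse. Lfng and Mfng lines slope down and Rfng and Numb lines slope up in all 4 mice, and the Mib1 and Numbl points of the reporter lines lie apart.

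Over the 4 mice, none of the 9 genes passed the test for Dll1+ against Dll1- cells, where 14.0% of all genes tested did. The test was edgeR's quasi-likelihood test on the fitted log2 ratio (log2 of the fold change) with the mouse as a block and Benjamini-Hochberg adjustment over all genes tested, and every adjusted p below comes from it unless another tool is named. At an unadjusted p under 0.05 there were 2 of 9, Lfng and Rfng, against 32.4% of all genes. DESeq2's Wald test called 1 of 9, Rfng, against 4362 of the 18322 genes tested. No member had Dll1+ libraries that all lay above or all below the Dll1- libraries, against 6.07% of all genes. Within mice, 4 of the 9 genes moved in the same direction in all 4 mice, against 41.3% of all genes. Lfng and Mfng were lower in Dll1+ cells of all 4, as were 19.9% of all genes, and Rfng and Numb were higher, as were 21.4%. The median log2 ratio of the 9 was -0.10, with -0.00068 over all genes. In GFP mice 1 of 9 passed, Adam10 lower, against 9.13% of all genes. In mCh mice 1 of 9 passed, Mfng lower, against 11.8%. The difference between the reporters' effects passed for 0 of 9, and at an unadjusted p under 0.05 for 4, against 0.0710% and 13.2% of all genes. DESeq2 also called 0 of 9 for the difference, against 540 of the 18322 genes tested.

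**Figure D2:**
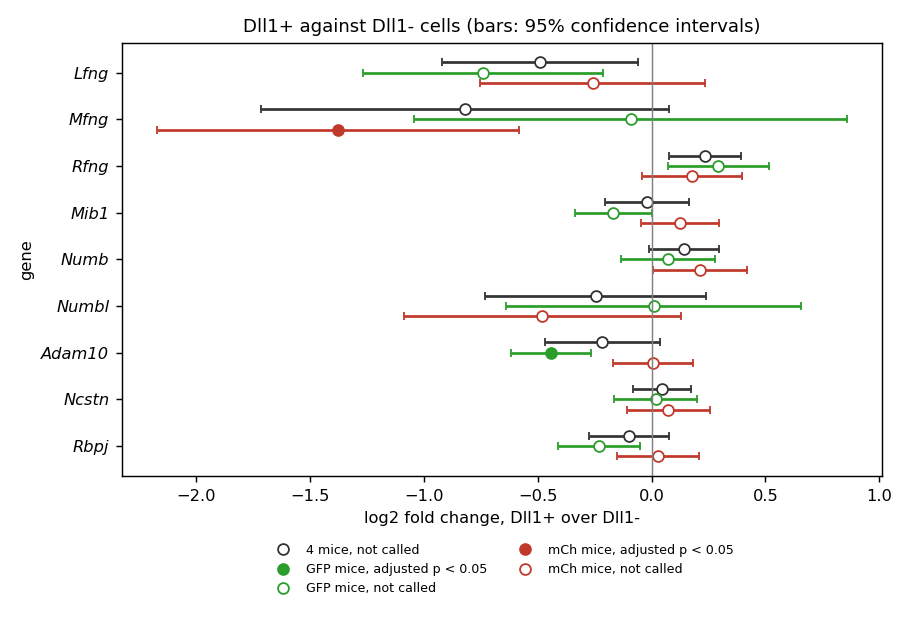
Log2 ratio of Dll1+ over Dll1- cells (x axis) for each gene (y axis), over 4 mice in black, in the 2 GFP mice in green and in the 2 mCh mice in red, with 95% confidence intervals. Filled points passed an adjusted p of 0.05, which only Adam10 in GFP mice and Mfng in mCh mice did.

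Lfng (lunatic fringe, ENSMUSG00000029570.5, chromosome 5, 140607320 to 140615545, + strand, GRCm38) was lower in Dll1+ cells of every mouse, by amounts that did not pass the adjusted test. In GFP mouse 1, GFP mouse 2, mCh mouse 1 and mCh mouse 2, the order used for every gene below, it was at 5.15, 3.78, 6.24 and 7.60 CPM in Dll1- cells. In Dll1+ cells of the same mice it was at 3.59, 1.92, 4.62 and 7.18 CPM. The steps were close to -0.52, -0.96, -0.43 and -0.08 on the log2 scale, so mCh mouse 2 hardly moved. The fitted log2 ratio was -0.49 (SE 0.18, adjusted p = 0.117) over 4 mice, -0.74 (SE 0.22, adjusted p = 0.0895) in GFP mice and -0.26 (SE 0.20, adjusted p = 0.44) in mCh mice. Without a filter on low counts the value in GFP mice passed, with an adjusted p of 0.0382.

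Mfng (manic fringe, ENSMUSG00000018169.12, chromosome 15, 78755882 to 78773475, - strand) was lower in Dll1+ cells of mCh mice. It was at 0.785, 0.901, 4.02 and 7.50 CPM in Dll1- cells and at 0.732, 0.850, 2.32 and 1.89 CPM in Dll1+ cells. The 4 GFP libraries were all below 1 CPM, and the mCh libraries all lay above them. In mCh mice the log2 ratio was -1.38 (SE 0.33, adjusted p = 0.0465). In GFP mice it was -0.09 (SE 0.39, 95% interval -1.04 to 0.86), and the difference between the reporters, GFP minus mCh, was 1.29 (SE 0.51, unadjusted p = 0.0435, adjusted p = 0.36). The call in mCh mice was lost without mCh mouse 2 (log2 ratio -0.82, adjusted p = 0.236), without GFP mouse 1 (adjusted p = 0.0867) or GFP mouse 2 (adjusted p = 0.0896), with mCh mice fitted alone (adjusted p = 0.123), and with RLE size factors (adjusted p = 0.0505).

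Marker genes of other cell types moved with Mfng in mCh mice. The 6 endothelial markers, all detected, summed to 147 and 329 CPM in the Dll1- cells of mCh mouse 1 and mCh mouse 2 and to 84.0 and 80.4 CPM in their Dll1+ cells. The 5 pericyte markers summed to 477 and 627 CPM in Dll1- and to 89.0 and 87.4 CPM in Dll1+ cells. Of all genes, 6.25% passed as lower and 5.51% as higher in Dll1+ cells of mCh mice, and 4.84% as lower in GFP mice. In mCh mice 5 of 5 pericyte, 5 of 6 tested immune, 3 of 6 fibroblast and 2 of 6 endothelial markers were lower in Dll1+ cells. None of these markers was higher. In GFP mice, where Mfng was at 0.732 to 0.901 CPM, none of these 4 lists had a member past the threshold, and the endothelial sum was 40.7 to 46.5 CPM. Of 3 tested erythroid markers, 1 was lower in Dll1+ cells of GFP mice and 2 in those of mCh mice. Their sum went from 108 to 39.8 CPM in mCh mouse 1 and from 52.8 to 22.4 CPM in mCh mouse 2. The part of these cells in the Mfng result was not tested. In bulk RNA, fewer cells of a type and less RNA per cell cannot be told apart.

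**Figure D3:**
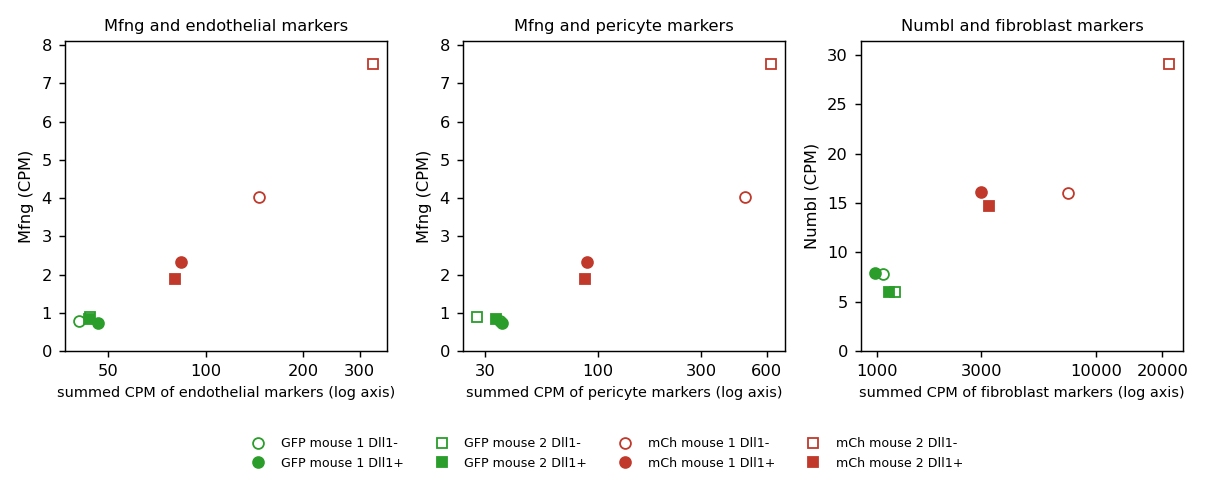
Mfng (CPM) against the summed CPM of endothelial and of pericyte markers, and Numbl (CPM) against that of fibroblast markers, with x on log axes, 1 point per library, open for Dll1- and filled for Dll1+ cells. The Dll1- library of mCh mouse 2 is highest on both axes in each panel, and the GFP libraries lie at the lower left.

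Rfng (radical fringe, ENSMUSG00000025158.7, chromosome 11, 120780746 to 120784207, - strand) was the most abundant Fringe gene and was higher in Dll1+ cells of every mouse. It was at 38.1, 43.6, 44.6 and 43.7 CPM in Dll1- cells and at 43.3, 57.3, 48.4 and 51.5 CPM in Dll1+ cells. The Dll1+ library of GFP mouse 1 lay within the range of the Dll1- libraries. The log2 ratio over 4 mice was 0.23 (SE 0.07, adjusted p = 0.0644), and DESeq2's Wald test gave an adjusted p of 0.0223. The effects were 0.29 (SE 0.09, adjusted p = 0.104) in GFP mice and 0.18 (SE 0.09, adjusted p = 0.244) in mCh mice.

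As a share of the length-scaled Fringe level, Rfng held 86.9% on average, with a range of 75.6% to 95.6% over libraries. Lfng held 3.19% to 13.1% and Mfng 1.24% to 11.4%. The Rfng share was higher in Dll1+ than in Dll1- cells of each mouse, 91.1% against 86.8% in GFP mouse 1, 95.6% against 90.6% in GFP mouse 2, 88.0% against 82.1% in mCh mouse 1, and 85.4% against 75.6% in mCh mouse 2. With the longest transcript as length, Rfng held 70.8% to 94.7% and Mfng 1.86% to 16.1%. In the Dll1- library of mCh mouse 2, Mfng at 16.1% then stood above Lfng at 13.2%. These shares restate the 3 levels and were given no test.

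**Figure D4:**
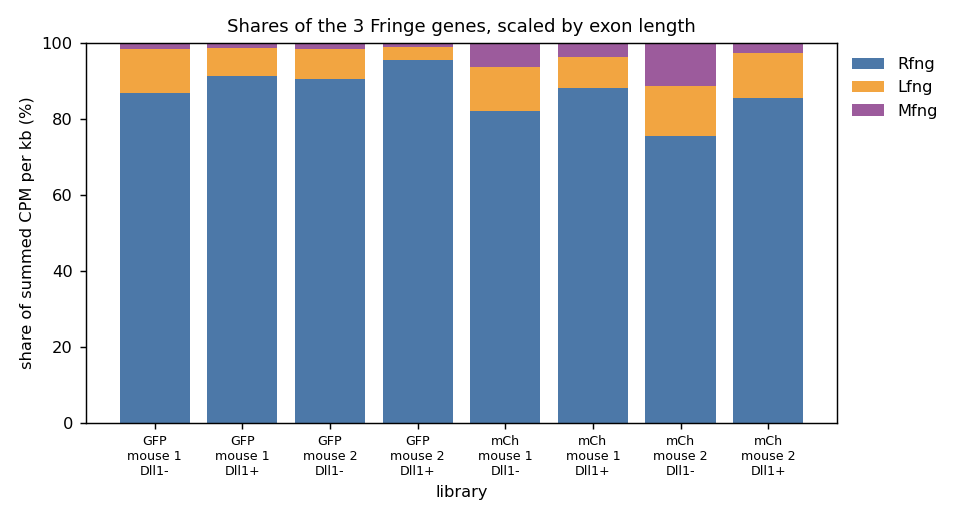
Share of each Fringe gene (y axis, percent) in the summed CPM per kilobase of the 3 genes in each library (x axis). Rfng fills 75.6% to 95.6% of each bar, and Mfng is visible chiefly in mCh mice, up to 11.4%.

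Mib1 (mindbomb E3 ubiquitin ligase 1, ENSMUSG00000024294.14, chromosome 18, 10725548 to 10818704, + strand) was lower in Dll1+ cells of both GFP mice and higher in both mCh mice. It was at 119, 121, 64.7 and 64.8 CPM in Dll1- cells and at 104, 110, 70.6 and 70.6 CPM in Dll1+ cells. The log2 ratio was -0.17 (SE 0.07, adjusted p = 0.193) in GFP mice and 0.12 (SE 0.07, adjusted p = 0.289) in mCh mice. The difference of -0.29 (SE 0.10) had an unadjusted p of 0.0244 and an adjusted p of 0.294, so it did not pass. Opposite directions in the reporters, alike in both mice of each, were seen for 3 of the 9 genes (Mib1, Adam10 and Rbpj) and for 10.9% of all genes. For Adam10 and Rbpj this rests on very small log2 steps in mCh mice, 0.0093 and 0.0035 for Adam10 and 0.018 and 0.039 for Rbpj. The fitted Adam10 value in mCh mice changed sign with RLE size factors, with DESeq2 and without a filter.

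Numb (ENSMUSG00000021224.15, chromosome 12, 83794034 to 83921934, - strand) was higher in Dll1+ cells of all 4 mice by small steps. It was at 50.5, 48.9, 29.7 and 31.6 CPM in Dll1- cells and at 52.1, 52.3, 32.6 and 38.8 CPM in Dll1+ cells. The log2 ratio over 4 mice was 0.14 (SE 0.06, adjusted p = 0.179), with 0.07 in GFP and 0.21 in mCh mice. Numbl (Numb-like, ENSMUSG00000063160.12, chromosome 7, 27258433 to 27282144, + strand) was at 7.78, 6.0, 16.0 and 29.0 CPM in Dll1- cells and at 7.92, 5.97, 16.1 and 14.7 CPM in Dll1+ cells. In 3 of the 4 mice Numbl in Dll1+ cells was 1.02, 0.996 and 1.01 times its level in Dll1- cells, against 0.508 times in mCh mouse 2, whose Dll1- library alone was high. That library also held the highest fibroblast and endothelial marker sums, and their part in the Numbl value was not tested. The log2 ratio of Numbl was -0.24 (SE 0.20, adjusted p = 0.429) over 4 mice, 0.01 in GFP mice and -0.48 (SE 0.24, adjusted p = 0.252) in mCh mice. Without mCh mouse 1, which leaves mCh mouse 2 as the only mCh pair, the Numbl value in mCh mice was -1.0. Without a filter on low counts Numbl passed in mCh mice (-0.50, adjusted p = 0.030). The span of Numbl overlaps that of the noncoding transcript Gm44641 on the same strand. Shared exon bases were not examined, so whether reads are split between them is unknown.

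Adam10 (ENSMUSG00000054693.14, chromosome 9, 70678997 to 70780229, + strand), the sheddase that makes the first ligand-dependent cut of Notch, was lower in Dll1+ cells of GFP mice. It was at 182, 156, 121 and 117 CPM in Dll1- cells and at 135, 114, 122 and 118 CPM in Dll1+ cells. The Dll1- libraries of the GFP mice were high, and the other 6 libraries lay between 114 and 135 CPM. The Dll1+ cells held 0.742 and 0.733 times the Dll1- level in the GFP mice, and 1.01 and 1.0 times in the mCh mice. In GFP mice the log2 ratio was -0.44 (SE 0.07, adjusted p = 0.0187), and in mCh mice it was 0.0064 (SE 0.07, 95% interval -0.17 to 0.18). The difference of -0.45 (SE 0.10) had an unadjusted p of 0.00426 and an adjusted p of 0.165. Without GFP mouse 1 or GFP mouse 2 the value in GFP mice was -0.44 (adjusted p = 0.171) or -0.43 (adjusted p = 0.186), with 1 pair left. Within GFP mice the fibroblast markers summed to 1070 and 1218 CPM in Dll1- and 984 and 1132 CPM in Dll1+ cells, and the 6 basal epithelial markers to 157 and 127 CPM in Dll1- and 373 and 205 CPM in Dll1+ cells. The basal sums were also higher in Dll1+ cells of mCh mice, where Adam10 was level, at 1220 and 1464 against 310 and 636 CPM. The 3 tested erythroid markers, of which 1 was lower in Dll1+ cells of GFP mice, summed to 6.55 and 9.98 CPM in Dll1- and 3.66 and 5.84 CPM in Dll1+ cells. The part of basal and erythroid cells in the Adam10 result was not tested.

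Ncstn (nicastrin, ENSMUSG00000003458.12, chromosome 1, 172066013 to 172082795, - strand) showed the smallest spread of effects over the mice. It was at 187, 169, 155 and 125 CPM in Dll1- cells and at 185, 174, 162 and 132 CPM in Dll1+ cells. The log2 ratio over 4 mice was 0.05 (SE 0.05, 95% interval -0.08 to 0.17, adjusted p = 0.575). Ncstn overlaps the start of Copa on the opposite strand. Rbpj (ENSMUSG00000039191.12, chromosome 5, 53466152 to 53657362, + strand) was lower in Dll1+ cells of both GFP mice and level in mCh mice. It was at 74.0, 66.2, 44.8 and 63.6 CPM in Dll1- cells and at 61.3, 58.0, 45.4 and 65.4 CPM in Dll1+ cells. The mCh mice differed more from each other than the sorted populations did in any mouse. The log2 ratio of Rbpj was -0.23 (SE 0.07, adjusted p = 0.113) in GFP mice and 0.03 (SE 0.07, adjusted p = 0.827) in mCh mice. The difference of -0.26 (SE 0.11) had an unadjusted p of 0.0468 and an adjusted p of 0.369. Reads of Rbpj can be shared with its processed pseudogenes.

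The reporter lines were also compared within each sorted population. In Dll1- cells 5 of 9 passed for mCh against GFP mice, 2 higher and 3 lower, where 36.6% of all genes passed. In Dll1+ cells 4 of 9 passed, 2 higher and 2 lower, against 30.6% of all genes. With 9 genes, these counts are not read as a property of the genes, and the comparisons use the same 4 mice. All 9 genes had no overlap between the lines in Dll1- cells, as did 70.9% of all genes, and in Dll1+ cells 6 of 9 had none, against 70.0%. There was no mouse term in this comparison, since mice are nested in the lines. The fit took the 2 libraries of a mouse as independent in its estimate of the spread. Their deviations from the group means correlated at 0.55 within mCh and -0.047 within GFP mice. The tests can thus rest on fewer independent values than the 8 libraries, with 2 mice per line.

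**Figure D5:**
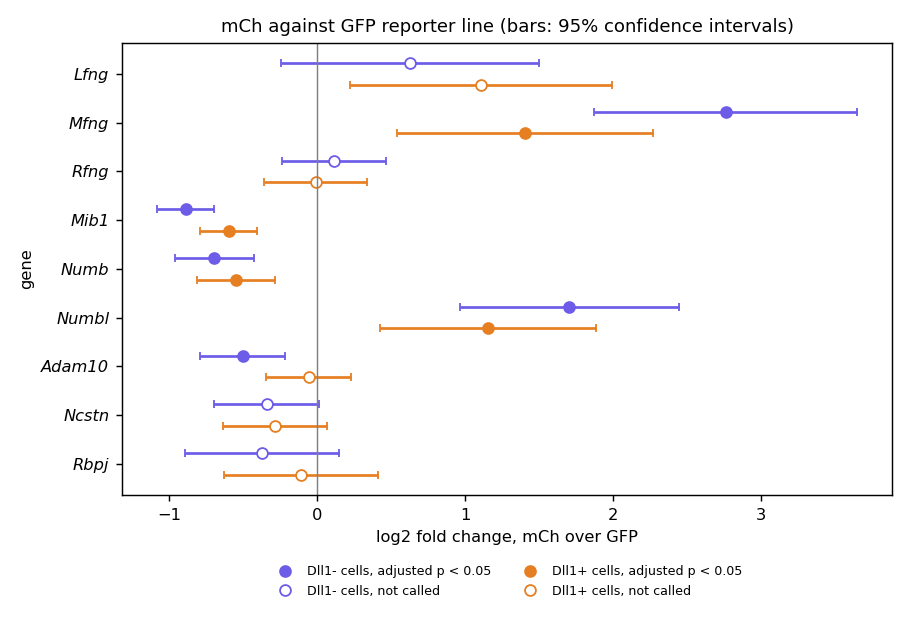
Log2 ratio of mCh over GFP mice (x axis) for each gene (y axis), in Dll1- cells (violet) and Dll1+ cells (orange), with 95% confidence intervals. Filled points passed an adjusted p of 0.05. Mfng and Numbl lie to the right of 0 and Mib1 and Numb to the left in both populations, and Adam10 passed in Dll1- cells.

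Mfng had the largest difference of the 9. Its level was 5.76 ± 2.46 CPM (SD, n = 2) in mCh and 0.843 ± 0.0824 CPM in GFP Dll1- cells, 6.78-fold higher (log2 ratio 2.76, SE 0.38, adjusted p = 0.00295). In Dll1+ cells the log2 ratio of Mfng was 1.40 (SE 0.36, adjusted p = 0.0288). Numbl was 3.26-fold higher in Dll1- cells (log2 ratio 1.70, SE 0.31, adjusted p = 0.00744), with 22.5 ± 9.20 against 6.89 ± 1.26 CPM. In Dll1+ cells Numbl was at 15.4 ± 1.01 against 6.94 ± 1.37 CPM (log2 ratio 1.16, SE 0.31, adjusted p = 0.0315). Lfng had log2 ratios of 0.63 (SE 0.37, adjusted p = 0.223) in Dll1- and 1.11 (SE 0.37, adjusted p = 0.0619) in Dll1+ cells. In Dll1+ cells Lfng passed with DESeq2 (adjusted p = 0.0259), without a filter (adjusted p = 0.00566) and without mCh mouse 1 (adjusted p = 0.0445).

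Markers of other cell types moved with Mfng and Numbl between the lines as well. In Dll1- cells 6 of 6 endothelial, 6 of 6 fibroblast, 5 of 5 pericyte and 6 of 6 tested immune markers were higher in mCh mice. In Dll1+ cells 2, 4, 3 and 3 of them were. Of all genes, 18.7% passed as higher in mCh Dll1- cells and 15.2% in mCh Dll1+ cells. The 7 immune markers summed to 28.0 to 34.8 CPM in GFP and 116 to 133 CPM in mCh Dll1- cells, and to 34.2 to 38.5 and 56.2 to 64.3 CPM in Dll1+ cells. The fibroblast sums were 1070 to 1218 and 7426 to 21349 CPM in Dll1- cells, and 984 to 1132 and 2978 to 3231 CPM in Dll1+ cells. No marker of these 4 lists was at 0 in any library. Of the 3 tested erythroid markers 2 were higher in mCh mice in each population, with sums of 6.55 to 9.98 against 52.8 to 108 CPM in Dll1- cells. Of the 6 basal markers, 2 were higher and 1 lower in mCh Dll1- cells and 4 were higher in mCh Dll1+ cells, where the sums were 205 to 373 and 1220 to 1464 CPM. The part of all these cells in the Mfng and Numbl differences was not tested.

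Mib1 and Numb went the other way. Mib1 was at 64.7 ± 0.0877 CPM in mCh and 120 ± 1.40 CPM in GFP Dll1- cells (log2 ratio -0.89, SE 0.08, adjusted p = 0.00135). In Dll1+ cells Mib1 was at 70.6 ± 0.00533 and 107 ± 4.25 CPM (log2 ratio -0.60, SE 0.08, adjusted p = 0.00519). Numb was at 30.7 ± 1.40 and 49.7 ± 1.07 CPM in Dll1- cells (log2 ratio -0.70, SE 0.11, adjusted p = 0.00488), and its log2 ratio in Dll1+ cells was -0.55 (SE 0.11, adjusted p = 0.014). Numb and Numbl, which share a role in receptor endocytosis, differed between the lines in opposite directions.

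Adam10 was lower in mCh mice in Dll1- cells, at 119 ± 2.75 against 169 ± 18.5 CPM (log2 ratio -0.50, SE 0.12, adjusted p = 0.018). In Dll1+ cells its log2 ratio was -0.06 (SE 0.12, 95% interval -0.34 to 0.23). The Adam10 call was lost without mCh mouse 2 (-0.44, adjusted p = 0.0603) or without its Dll1- library alone (-0.43, adjusted p = 0.0858). Ncstn had log2 ratios of -0.34 (adjusted p = 0.114) and -0.29 (adjusted p = 0.18), and without mCh mouse 1 it passed in both populations (-0.51, adjusted p = 0.0163, and -0.48, adjusted p = 0.0222). Rbpj had -0.37 (adjusted p = 0.227) and -0.11 (adjusted p = 0.729), and without mCh mouse 2 it passed in both (-0.60, adjusted p = 0.00763, and -0.39, adjusted p = 0.0369). Rfng, at 0.11 and -0.01, did not pass in either population. Without GFP mouse 1 or GFP mouse 2, no gene of the whole table passed in either comparison of the lines. The adjusted p of the 5 members called in Dll1- cells was then 0.0697 to 0.156, and that of the 4 called in Dll1+ cells 0.122 to 0.259, with the same directions.

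Around these 9 genes, a list of 54 other Notch pathway genes, Dll1 left out, was read in the same fits, and 52 of them passed the filter. Over 4 mice 3 of 52 were higher in Dll1+ cells, against 6.98% of all genes, and 2 of 52 lower, against 7.04%. The median log2 ratio of the list was -0.0030. Those higher were Mib2, the other mindbomb ligase (0.42, SE 0.05, adjusted p = 0.00961), the deltex gene Dtx3 (0.40, SE 0.07, adjusted p = 0.0238) and the coactivator gene Maml2 (0.38, SE 0.07, adjusted p = 0.0272). Those lower were Xxylt1, a xylosyltransferase that extends sugars on Notch (-0.44, SE 0.09, adjusted p = 0.0278), and the E3 ligase gene Lnx2 (-0.30, SE 0.07, adjusted p = 0.0393). Mib2 passed in both reporters, at 0.45 (adjusted p = 0.0197) in GFP and 0.39 (adjusted p = 0.0279) in mCh mice, while its relative Mib1 had opposite signs. In GFP mice 2 were higher (Mib2 and Dtx3) and 0 lower, against 4.29% and 4.84% of all genes. At an unadjusted p under 0.05 there were 9 of 52 in GFP mice, against 26.7% of all genes. DESeq2 called 3 of 52 in GFP mice, against 2053 of 18322 genes. In mCh mice 3 were higher (Mib2, Maml2 and the demethylase gene Kdm5a, 0.34, adjusted p = 0.0374) and 2 lower (Xxylt1 and Dlk1), against 5.51% and 6.25%, with 21 of 52 at an unadjusted p under 0.05, against 30.2% of all genes. Dlk1, a noncanonical ligand, fell from 3.54 to 0.656 CPM in mCh mouse 1 and from 8.69 to 1.12 CPM in mCh mouse 2 (log2 ratio -2.70, SE 0.43, adjusted p = 0.0187). In the same comparison the median log2 ratio was -2.23 for the 5 pericyte and -2.14 for the 6 fibroblast markers, and their part in the Dlk1 result was not tested. With 1 mouse left out of the test over all mice, calls fell among all genes as well. None of the 52 passed without GFP mouse 1 or without mCh mouse 1, against 433 of 19204 and 405 of 17740 genes tested. Without GFP mouse 2, 2 did, against 779 of 18708 genes. In mCh mice 1 passed without GFP mouse 1 or GFP mouse 2, against 1069 of 19204 and 905 of 18708 genes. Where the mouse left out was of the reporter tested, 1 pair was left and no count is given.

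The receptors did not pass between Dll1+ and Dll1- cells in either reporter or over 4 mice. Notch1 was higher in Dll1+ cells of 4 of 4 mice, with a log2 ratio of 0.28 (SE 0.07, adjusted p = 0.0588). Notch2 had -0.03 (SE 0.08), Notch3 -0.05 (SE 0.13) and Notch4 -0.38 (SE 0.31). Notch3 was 0.23 (SE 0.09, adjusted p = 0.162) in GFP and -0.32 (SE 0.09, adjusted p = 0.0661) in mCh mice, a difference of 0.55 (SE 0.13, unadjusted p = 0.00394, adjusted p = 0.161). Notch4 was 0.19 (SE 0.27, adjusted p = 0.723) in GFP and -0.93 (SE 0.27, adjusted p = 0.0907) in mCh mice, a difference of 1.12 (SE 0.38, unadjusted p = 0.0319, adjusted p = 0.324). In mCh mice the median log2 ratio was -1.38 for the 6 endothelial and -2.23 for the 5 pericyte markers. In GFP mice these medians were 0.11 and 0.15. The part of these cells in the Notch3 and Notch4 values was not tested. Between the lines, 7 of 52 list genes were higher and 14 lower in mCh Dll1- cells, against 18.7% and 17.9% of all genes. In Dll1+ cells 4 were higher and 12 lower, against 15.2% and 15.4%. Notch1 was at 128 and 130 CPM in mCh and 293 and 338 CPM in GFP Dll1- cells (log2 ratio -1.30, SE 0.11, adjusted p = 0.00119). Notch2 was also lower (-0.71 in Dll1- and -0.64 in Dll1+ cells, adjusted p = 0.0175 and 0.030), and Notch3 was lower in Dll1+ cells (-0.60, adjusted p = 0.00859). In Dll1- cells the coactivator gene Ep300 (-1.13, adjusted p = 0.00169), the corepressor gene Spen (-0.82, adjusted p = 0.00265) and the E3 ligase genes Fbxw7 (-0.91, adjusted p = 0.00273) and Itch (-0.66, adjusted p = 0.00611) were lower in mCh mice. In Dll1+ cells Psenen, a gamma-secretase subunit like Ncstn, was higher (0.72, SE 0.12, adjusted p = 0.00827), as were the Notch feedback gene Nrarp (1.09, adjusted p = 0.0209) and Hdac1 (0.47, adjusted p = 0.0266), and Kat2b was lower (-0.56, adjusted p = 0.0211). Without either GFP mouse none of these line differences passed.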

How the data were processed

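RNA was sequenced from sorted, lineage-negative tumor cells of 4 mice with the TruSeq Stranded kit, as a Dll1+ and a Dll1- library per mouse. The authors mapped reads with salmon (named without a version in their processing notes) to GENCODE M20 mouse transcripts of GRCm38.p6 and summed them to genes with tximport. The authors deposited estimated counts per gene, which were whole numbers without normalization. No deposited column was left out. Total counts of 27301396 to 123907626 set the precision, and the floor of 3 counts covers counting error only. Whether the mice of a line were litter mates is not given in the sources used here.

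Tests were run with R 4.3.3 and edgeR 4.0.16 (TMM, filterByExpr on the Dll1+ and Dll1- groups, robust quasi-likelihood F test, Benjamini-Hochberg adjustment over 18322 genes, threshold 0.05). One fit held Dll1 status and mouse, as in the study's model, a further fit a Dll1+ effect for each reporter with the mouse as a block, and another the 4 groups without a mouse term. SEs were the log2 fold change over the square root of F. The blocked fits pair the libraries of a mouse because they come from the same animal. Deviations from the group means correlated at -0.047 within GFP and 0.55 within mCh mice. Log2 CPM per library used a prior count of 2.

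Exon lengths came from GENCODE M21 and upstream windows from RefSeq (GRCm38.p6). Of the 9 members 7 were matched in that source, without Mfng and Mib1, and windows with over 30 bases in annotated exons are not printed. The members and lists were chosen with earlier results of these data known. The genes named are the 9 members, Dll1, Epcam, Ptprc and Pecam1 as checks, the Notch receptors, and the pathway genes past the threshold with the lowest p, up to 12 over all mice and up to 4 more in each other comparison. Genes most alike in pattern were to be named for members past the threshold over all mice, of which there were none. Marker lists were also read for Dll1+ against Dll1- cells over all mice. There 2 of 6 basal markers were higher and 1 of 3 tested erythroid markers lower, against 6.98% and 7.04% of all genes. None of the luminal, immune, endothelial, fibroblast and pericyte markers passed the threshold. The 5 luminal markers summed to 4800 to 5864 CPM in Dll1- and 5759 to 7903 CPM in Dll1+ cells, and the 6 basal markers to 127 to 636 and 205 to 1464 CPM. 1 other marker is not reported here. Scripts were tested on simulated counts. Alternatives were RLE size factors, DESeq2 1.42.0, a low-count filter that was absent or set at 10 counts in each library, fits with or without the block, each reporter or population alone, other gene lengths and each mouse left out.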

Additional observations from a re-analysis of the deposited data

Results flagged for a closer look

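Numbl was picked out because 1 mouse lay far from the others. The Dll1+ minus Dll1- difference in log2 CPM was 0.03, -0.01 and 0.01 in GFP mouse 1, GFP mouse 2 and mCh mouse 1 and -0.98 in mCh mouse 2, and the gap took 0.969 of the range, above Dixon's critical value at the 95% level. Chance alone picks out about 1 in 20 groups, and 9 genes were examined.

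Mib1, Adam10 and Rbpj were picked out because Dll1+ cells were lower in both GFP mice and higher in both mCh mice. The difference between the effects (GFP minus mCh, log2) was -0.292 for Mib1, -0.446 for Adam10 and -0.259 for Rbpj, with edgeR adjusted p of 0.294, 0.165 and 0.369, so none passed the test of the difference. The steps in mCh mice were 0.01 and 0.0035 for Adam10 and 0.02 and 0.04 for Rbpj.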

How the results depend on the processing

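Of the values for single members under the alternatives, 484 kept their direction and side of the threshold, 29 lost the threshold, 12 passed it and 15 changed sign. Over all mice 1 member was called with DESeq2 (Rfng), against 4362 of 18322 genes. In GFP mice 2 members were called without a filter, against 3001 of 34834 genes. In mCh mice 0 were called with RLE size factors (2113 of 18322 genes) or mCh mice fitted alone (0 of 19945). Without a filter 2 members were called in mCh mice, against 3637 of 34834 genes. Without the replicate block, 0 members were called in GFP mice (Adam10, adjusted p = 0.149) and 0 in mCh mice (Mfng, adjusted p = 0.0834). That setting called 0 pathway genes over all mice, in GFP mice or in mCh mice. Of all 18322 genes it called 274 in GFP mice, 212 in mCh mice and 0 over all mice. With the replicate number as a block between the lines, where the numbers are only names, Ncstn also passed in Dll1- cells (adjusted p = 0.0398). The pathway list counted 8 over all mice with DESeq2. In mCh mice it counted 8 with DESeq2, against 2473 of 18322 genes, 13 without a filter and 0 with mCh mice fitted alone. For the difference it counted 2 with DESeq2 and 5 without a filter, against 540 of 18322 and 1143 of 34834 genes. The causes were not tested.

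With 1 mouse left out, members called ranged from 0 to 0 over all mice, 0 to 1 in GFP mice, 0 to 2 in mCh mice, 0 to 0 for the difference, and 0 to 6 in each comparison of the lines. The pathway list ranged from 0 to 4 over all mice, 0 to 3 in GFP mice, 0 to 5 in mCh mice, 0 to 3 for the difference, 0 to 22 in Dll1- and 0 to 20 in Dll1+ cells. Calls among all genes ran from 405 of 17740 to 2400 of 18374 over all mice. In GFP mice they were 2355 of 17740 without mCh mouse 1 and 2315 of 18374 without mCh mouse 2. In mCh mice they were 1069 of 19204 without GFP mouse 1 and 905 of 18708 without GFP mouse 2. Between the lines no gene passed without either GFP mouse, so the low ends there are not particular to these lists. The other fits leave 1 pair or mouse, so no all-gene count is given. All these fits hold fewer samples. The lone pair or mouse is assumed to vary like the others.

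Signs changed for log2 values that had not passed the test. Adam10 in mCh mice was -0.0083 with RLE size factors, -0.0082 with DESeq2, -0.014 without a filter, -0.011 with mCh mice alone and -0.020 to 0.011 with 1 mouse left out. With 1 mouse left out, over all mice Mib1 was -0.072 to 0.040 and Numbl -0.33 to 0.0065, in GFP mice Ncstn was -0.0095 to 0.054, and in mCh mice Rbpj was -0.011 to 0.033. Between the lines in Dll1+ cells, Rfng was 0.0065 without a filter, and with 1 mouse left out Rfng was -0.21 to 0.19, Adam10 -0.19 to 0.052 and Rbpj -0.39 to 0.096.

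Over all genes, the calls were 2568 over all mice (405 to 4362 under alternatives with the block, 0 without it), 1673 in GFP mice (2 to 3001), 2154 in mCh mice (0 to 3637), 13 for the difference (0 to 1143), 6701 between the lines in Dll1- (0 to 7828) and 5612 in Dll1+ cells (0 to 6897). Without the Dll1- library of mCh mouse 2, chosen after the data were seen, 4 members were called between the lines in Dll1+ cells, against 6440 of 19263 genes. In Dll1- cells 1 mCh library was left, so no count is given. With the longest protein-coding transcript as length, levels per kilobase were 21.9 for Rfng, 55.6 for Ncstn, 10.9 for Rbpj and 4.69 for Numbl. With 2 mice per line, the depth of Mfng in GFP mice (21 to 38 counts) limits its interval.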
